A study of Mus musculus with 6 samples.

Results

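The 9 genes described here encode proteins that neutrophils store in granules or in the cytosol. Elane, Prtn3, Mpo and Ctsg encode neutrophil elastase, proteinase 3, myeloperoxidase and cathepsin G, the enzymes of azurophil (primary) granules. Ltf, Camp and Ngp encode lactoferrin, the cathelicidin precursor and neutrophilic granule protein, which belong to specific (secondary) granules. S100a8 and S100a9 encode the subunits of calprotectin, a calcium- and metal-binding dimer of the neutrophil cytosol. The genes were chosen by symbol, and 9 of 9 were found among the 52081 gene identifiers that all 6 libraries share.

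Neutrophils fill their granules in a fixed sequence while they develop in the bone marrow. Azurophil proteins are made by promyelocytes and their progenitors, specific granule proteins by myelocytes and metamyelocytes, and gelatinase granule proteins after that, so a granule protein is stored in the cell long after its transcript has gone. C/EBPα, C/EBPε, PU.1 and Gfi1 are transcription factors known to act on these genes. Monocytes arise from progenitors that share the azurophil programme, and calprotectin is made by neutrophils and by classical monocytes.

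The data are single-cell RNA libraries of fracture callus, the tissue that bridges a healing bone, collected 14 days after femoral fracture from male mice of 12 weeks. Of the 6 libraries, 3 carry the label CON with the genotype wt and 3 the label CKO with the genotype written as Col2CreERT; Piezo3-/-, while the design text of the series names Piezo1. In the methods of the study the controls are Piezo1 f/f mice, and the Col2a1-driven, tamoxifen-inducible Cre deletes Piezo1, a mechanically gated ion channel, in cells that express Col2a1, which are mainly chondrocytes. Tamoxifen was given at 75 mg/kg on 5 consecutive days starting 5 days after fracture. The results and figure legends of the study state it for both groups, while its methods name only the Piezo1Col2a1 mice. The deletion was thus not directed at the myeloid cells described here, whole digested calluses were loaded, and the cells can include marrow and blood that the callus holds. Nothing was found in the labels that ties 2 libraries to 1 mouse, and p-values measure the spread between these libraries. The study gives differing numbers of mice for this experiment in its results and its methods. Whether each library is 1 mouse is therefore not known.

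The libraries held 57626530 to 103784364 unique molecular identifiers (UMIs, each counted as 1 captured transcript), and 41652 cells were kept, with medians of 4822.5 to 9778 UMIs per cell. Piezo1 was at 41.9 to 59.8 CPM (a gene's UMIs relative to all UMIs of the same cells) in CON and 41.9 to 98.3 CPM in CKO over stromal-like cells with at least 10 Col2a1 UMIs. A 3′ tag counts the transcript whether or not the floxed exons are lost, so this is no check of the deletion. The library labelled CKO 3 went against the stated sex: Xist was at 578 CPM and 4 Y-linked genes together at 0.032 CPM there, against at most 0.170 and at least 108 CPM in the other libraries. Several genotype results of single members are therefore also given without it. Gene list medians, mature sub-cluster shares and most class shares are not. Pairs of libraries shared 4 to 29 cell barcodes, at most 0.345% of the smaller library. The replicate 1 libraries of both groups, which were also counted with another version of Cell Ranger, held few of the progenitor-like and immature cells named below. As a share of cells, mature and monocyte-like cells were low in CON 1 only. In CKO 1 both shares lay within the range of the replicate 2 and 3 libraries. The replicate 1 libraries contributed 56 cells of CON and 252 cells of CKO to the stages below. A different gene list had been used to count replicate 3 of CON and CKO.

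Cells were grouped by clustering without the granule genes, and clusters were named from lists of other markers. Progenitor-like cells, led by Ms4a3 and Nkg7, passed the marker rule with 7 of 10 markers of granulocyte-monocyte progenitors and also carried cell-cycle genes. Immature neutrophil-like cells were divided into a cycling cluster and a non-cycling cluster, the second of which was led by Ldhc, Ly6g and Zmpste24. Mature neutrophil-like cells formed 4 sub-clusters with Cxcl2, Acod1, Il1b and Csf3r among their leading genes. Monocyte-like cells were divided into a cycling cluster and non-cycling clusters led by Ms4a4c and Ccr2 or by Ace and Cx3cr1. In all, 242 progenitor-like, 442 cycling immature, 762 non-cycling immature, 3265 mature, 114 cycling monocyte-like and 1440 non-cycling monocyte-like cells were kept. All 6 stages were filled with at least 10 cells in 4 libraries, CON 2, CON 3, CKO 2 and CKO 3, and levels are given over those unless stated. Levels are in CPM. Each UMI marks the 3′ end of 1 molecule, so no level was divided by transcript length.

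The 4 azurophil genes were highest in progenitor-like cells in 4 of 4 libraries. Elane was at 7253 CPM in CON 2, 9418 in CON 3, 13771 in CKO 2 and 14686 in CKO 3. Prtn3 was at 8587, 12487, 11919 and 12888 CPM in the same order of libraries. Mpo, which makes hypochlorous acid from hydrogen peroxide, was at 6679, 6234, 3185 and 3354 CPM. Elane and Prtn3, which code for sister serine proteases, were thus higher than Mpo in each library. Ctsg, a serine protease of another gene cluster, was at 4710, 4851, 2121 and 3012 CPM and was the lowest of the 4 in each library. The means were 11282 ± 3535 CPM for Elane, 11470 ± 1963 for Prtn3, 4863 ± 1850 for Mpo and 3673 ± 1330 for Ctsg (SD, n = 4 libraries). Elane and Prtn3 changed order between libraries, while Mpo was above Ctsg in 4 of 4 libraries.

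Azurophil transcripts were far lower 1 step later. In cycling immature cells, against progenitor-like cells of the same library, Elane was 14.2- to 64.2-fold lower, Prtn3 12.2- to 35.1-fold, Mpo 17.4- to 226-fold and Ctsg 49.3- to 183-fold, each in 4 of 4 libraries. In cycling immature cells Prtn3 was still at 395, 1020, 339 and 780 CPM and Elane at 283, 665, 214 and 682 CPM in CON 2, CON 3, CKO 2 and CKO 3. For both genes CON 3 and CKO 3 lay above CON 2 and CKO 2. In non-cycling immature cells Elane was at 8.53, 85.6, 14.6 and 7.60 CPM, so CON 3 stood above the other libraries. There Prtn3 was likewise at 146 CPM in CON 3 against 7.92 to 17.4 CPM in the others. In mature cells, over 6 libraries, Elane ranged from 0 to 28.8 CPM, Prtn3 from 0 to 49.6, Mpo from 0 to 19.6 and Ctsg from 0 to 13.8. Stromal-like cells, which should lack these transcripts, ranged from 0.256 to 25.6 CPM for Elane, 1.69 to 24.3 for Prtn3, 1.28 to 17.6 for Mpo and 0.192 to 4.10 for Ctsg. The ranges of mature and stromal-like cells overlapped for each of the 4 genes. CON 3 nevertheless lay above the highest stromal-like level for all 4. CON 2 did so for Mpo and Ctsg (18.9 and 11.1 CPM) and CKO 3 for Ctsg (7.71 CPM). Endothelial-like cells reached 64.5 CPM of Elane, 54.6 of Prtn3, 22.1 of Mpo and 23.7 of Ctsg, above every mature value. Whether the values of mature cells are background was not tested. In CON 1, with 29 mature cells, no UMI of the 4 genes was found, which allows up to 17.8 CPM of each, and in CKO 1 none of Mpo and Ctsg, which allows up to 3.10 CPM.

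The specific granule genes were highest in immature cells. Camp, whose product is cleaved to an antimicrobial peptide, was at 53406, 54253, 58309 and 65741 CPM in cycling immature cells of CON 2, CON 3, CKO 2 and CKO 3, the highest of the 6 stages in each library. Ngp, a cystatin-like granule protein, was at 43666, 28931, 51490 and 49233 CPM in the same cells and was also highest there in 4 of 4 libraries. Its margin over non-cycling immature cells was small in part, 1.15-fold in CON 2, 1.03-fold in CON 3, 1.70-fold in CKO 2 and 1.26-fold in CKO 3. Ltf, an iron-binding protein, peaked 1 step later. It was at 10394, 7454, 6837 and 7348 CPM in non-cycling immature cells, 1.06- to 1.45-fold above the cycling cells of the same library. The 3 genes also differed in when they appeared. In progenitor-like cells Camp was already at 9986, 4447, 21958 and 10398 CPM and Ngp at 4351, 1258, 11874 and 6109 CPM, while Ltf was at 259, 18.4, 342 and 22.6 CPM. Cycling immature cells of the same library were 2.66- to 12.2-fold higher for Camp, 4.34- to 23.0-fold for Ngp and 18.9- to 313-fold for Ltf. In Ltf the levels of CON 3 and CKO 3 in progenitor-like cells lay near the highest stromal-like value of 18.2 CPM.

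Mature cells had less of the specific granule genes than non-cycling immature cells in 4 of 4 libraries, 7.85- to 78.3-fold for Ltf, 8.40- to 64.0-fold for Camp and 4.85- to 34.0-fold for Ngp. In the same step S100a8 was 1.30- to 2.63-fold lower and S100a9 1.30- to 2.41-fold lower. In mature cells calprotectin transcripts thus stood far above the other members, although Camp and Ngp still reached 4003 and 8069 CPM in CKO 3. The highest levels of Ltf in mature cells, 672 and 936 CPM, were in CKO 2 and CKO 3. The levels per library are described with the genotype labels below.

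**Figure D1:**
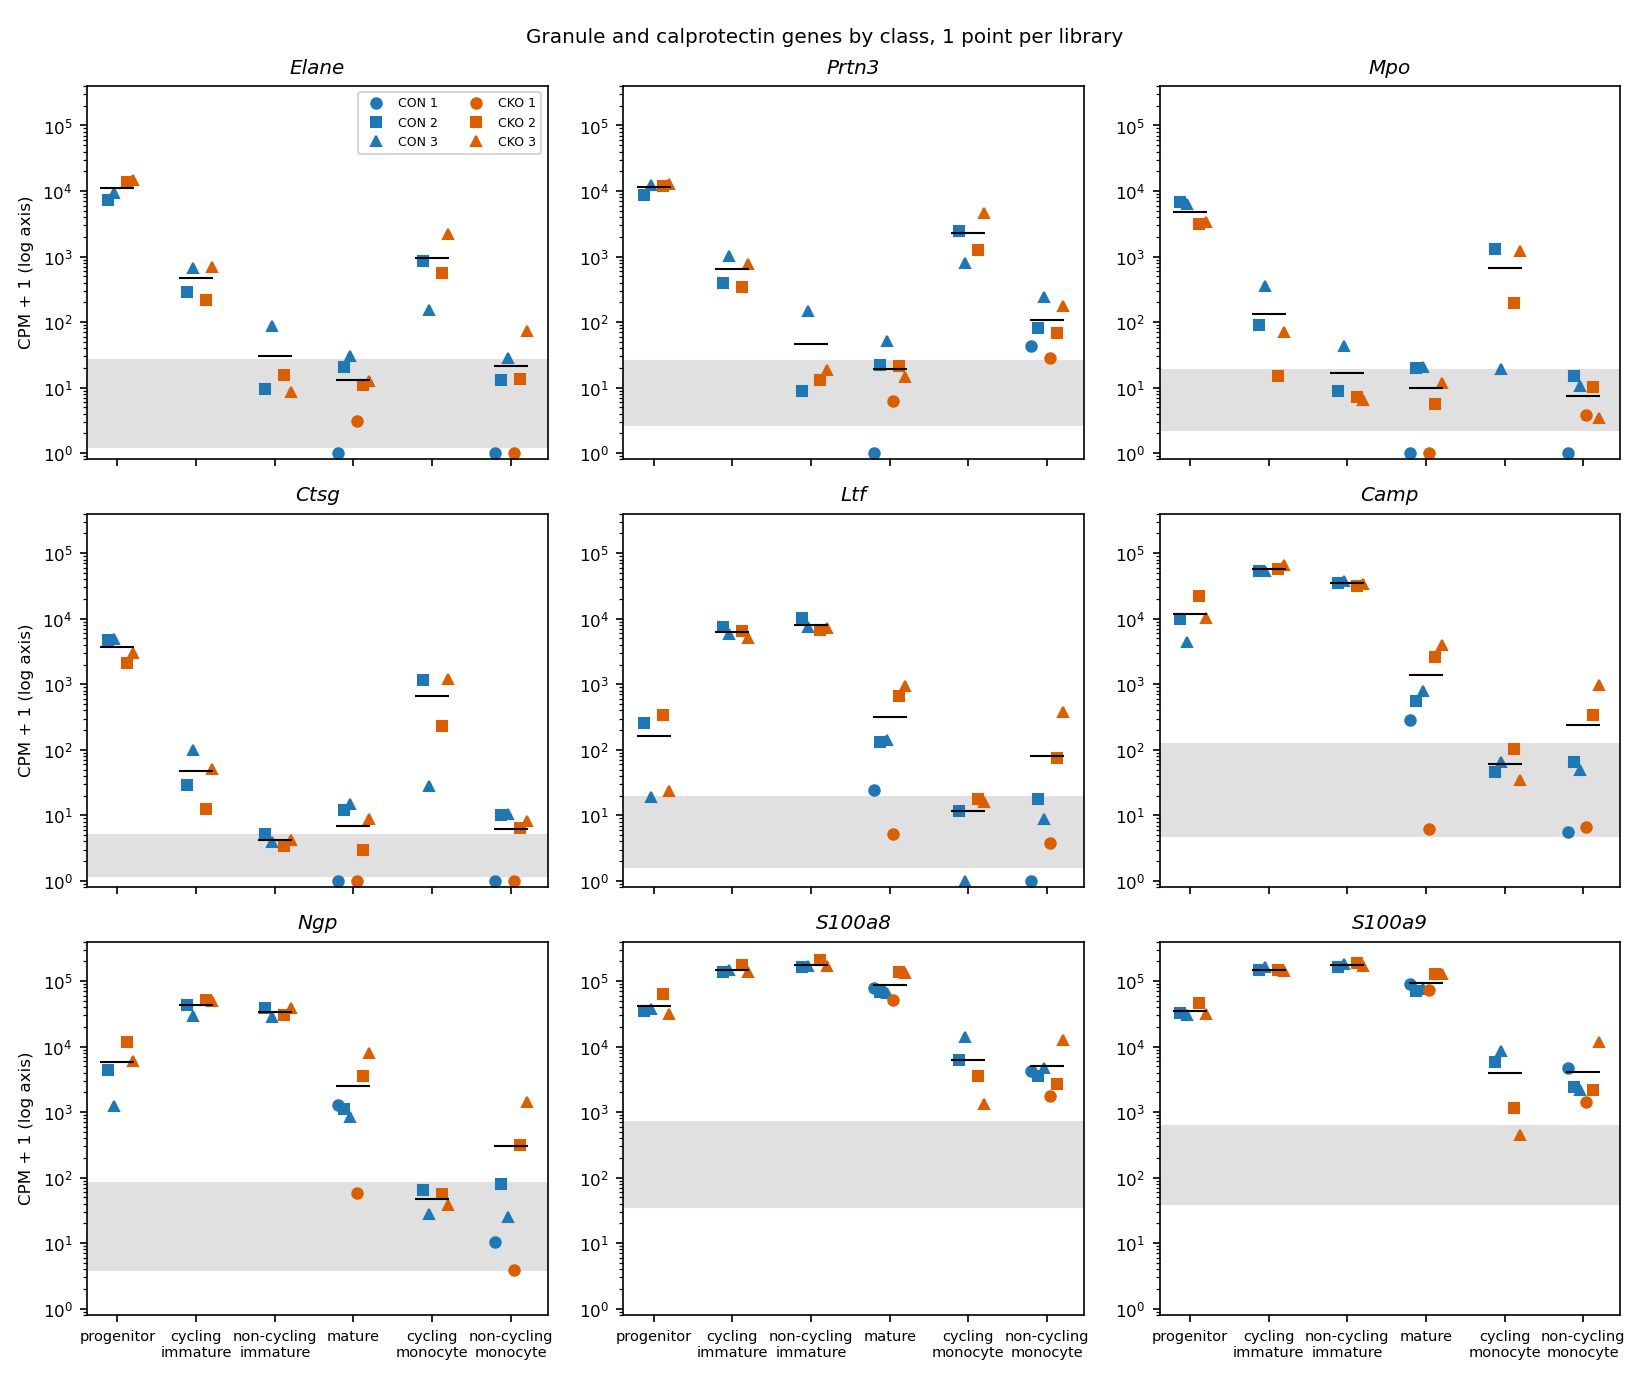
Level of each of the 9 genes (CPM + 1, log axis) in 6 stages, 1 point per library with at least 10 cells of the stage (CON and CKO by colour); bars are means over libraries and the grey band is the range over 6 libraries in stromal-like cells. The 4 azurophil genes are highest in progenitor-like cells, Camp and Ngp in cycling immature cells, and Ltf, S100a8 and S100a9 in non-cycling immature cells.

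S100a8 and S100a9 were the most abundant members in every neutrophil stage. In non-cycling immature cells S100a8 was at 163098, 171574, 208690 and 168761 CPM and S100a9 at 164075, 179785, 188077 and 168087 CPM in CON 2, CON 3, CKO 2 and CKO 3. Both were highest in that stage in 4 of 4 libraries, although the cycling immature cells lay only 1.17- to 1.24-fold lower for S100a8 and 1.09- to 1.29-fold lower for S100a9. Together the 9 genes took 39.9% to 44.7% of all UMIs of immature cells, of which S100a8 and S100a9 made up 30.4% to 35.0% of all UMIs. In progenitor-like cells the 9 genes took 10.6% to 17.6% of the UMIs, in mature cells of 6 libraries 12.4% to 27.3%, and in monocyte-like cells 0.323% to 1.89%. Such shares press on every other gene in a CPM scale. Where each of the 9 genes was highest stayed the same when their own UMIs were left out of the totals. It also stayed the same in 4 of 4 libraries with cells thinned to 500 UMIs each. The same held with granule genes kept among the clustering genes and at a cluster resolution of 1.2. With cells assigned by marker counts, and in the 3 libraries usable without integration, the highest class was the same. These last settings had no separate cycling immature cells, so peaks within immature cells could not be compared there. Without integration, 519 cycling cells with Camp, Ngp and Ltf among their leading genes stayed unnamed and outside the comparison. CKO 3 was not usable there, and 541 of its cells lay in a cluster named mature with these genes leading. The full order over the 6 stages differed between libraries for each gene.

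The ratio of S100a8 to S100a9 UMIs was close to 1 wherever neutrophils were concerned. It ran from 0.994 to 1.39 in progenitor-like cells, 0.887 to 1.19 in cycling immature, 0.954 to 1.11 in non-cycling immature and 0.692 to 1.05 in mature cells. Cycling monocyte-like cells had ratios of 1.07 in CON 2, 1.65 in CON 3, 3.08 in CKO 2 and 2.96 in CKO 3. In these cells the CKO libraries lay above the CON libraries, from 10 to 39 cells per library and as few as 215 S100a9 UMIs in CKO 3. The CKO libraries also lay above in both immature stages. The groups overlapped in progenitor-like, mature and non-cycling monocyte-like cells. These orders were not tested, and with 2 libraries against 2 an exact permutation test cannot give a p below 0.333. Non-cycling monocyte-like cells of 6 libraries had ratios from 0.916 to 2.23, with the highest in CON 3. Stromal-like cells had ratios of 0.743 to 1.17, which overlap those of each neutrophil stage.

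**Figure D2:**
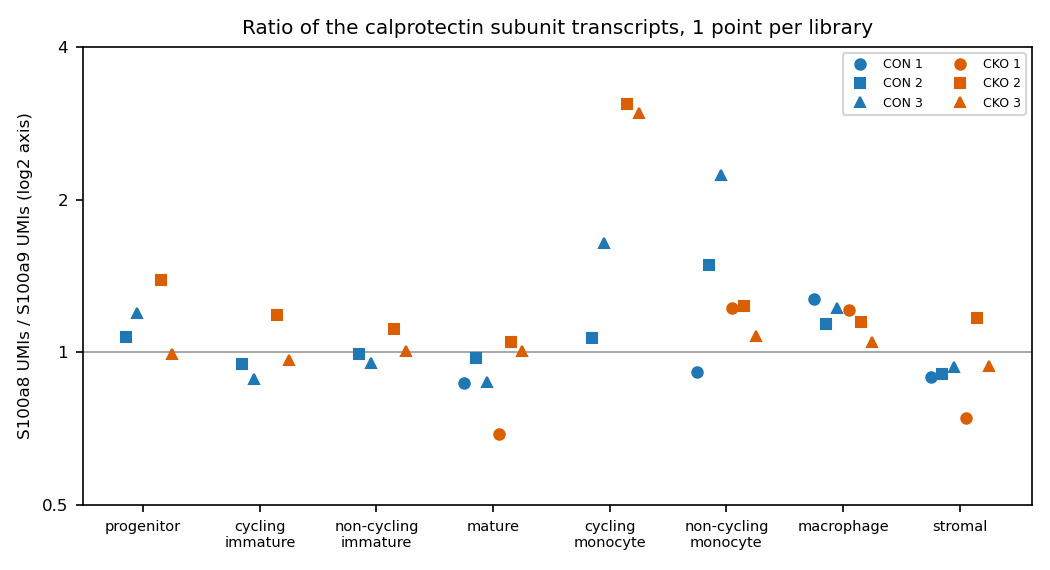
Ratio of S100a8 to S100a9 UMIs (log2 axis) per library in each of the 6 stages and in macrophage-like and stromal-like cells, 1 point per library with at least 10 cells. The neutrophil stages lie between 0.692 and 1.39, while cycling monocyte-like cells reach 3.08.

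Cycling monocyte-like cells carried the azurophil genes, with the specific granule genes at the level of stromal-like cells. In cycling monocyte-like cells Prtn3 was at 2413, 794, 1266 and 4659 CPM and Elane at 843, 153, 567 and 2241 CPM in CON 2, CON 3, CKO 2 and CKO 3. Mpo was at 1284, 18.0, 193 and 1211 CPM and Ctsg at 1152, 27.1, 232 and 1209 CPM. CON 3, with 10 cells, was the lowest library for each of the 4 genes. Camp ranged from 33.6 to 101 CPM and Ngp from 27.1 to 64.5 CPM in the same cells, within the range of stromal-like cells. Prtn3 was the highest azurophil gene of cycling monocyte-like cells in each library, 2.77- to 15.7-fold below progenitor-like cells. In non-cycling monocyte-like cells Prtn3 was at 41.8, 80.1 and 243 CPM in CON 1, CON 2 and CON 3 and at 26.9, 67.4 and 173 CPM in CKO 1, CKO 2 and CKO 3. Each of these values lay above the highest stromal-like level of 24.3 CPM, and Prtn3 exceeded its level in mature neutrophil-like cells at least 3.30-fold in each library with a UMI in both. The values of CON 1 and CKO 1 rest on 9 and 19 UMIs and lay below the highest endothelial-like level of 54.6 CPM. Only those of CON 3 and CKO 3 lay above the highest dendritic-like level of 98.7 CPM. The other azurophil genes of non-cycling monocyte-like cells had median levels of 12.4 CPM for Elane, 6.02 for Mpo and 6.32 for Ctsg (n = 6 libraries). The specific granule genes of these cells varied between libraries, from 4.65 to 963 CPM for Camp, 0 to 374 for Ltf and 2.83 to 1409 for Ngp, each highest in CKO 3.

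Outside these stages the 9 genes were lower than in the stages where each was highest, but not always at the stromal-like level. In the highest library, dendritic-like cells reached 113 CPM of Elane and 98.7 of Prtn3, and endothelial-like cells 64.5 and 54.6. The highest stromal-like levels were 25.6 and 24.3 CPM. Camp had means of 41.3 to 145 CPM and S100a8 of 279 to 1158 CPM in 10 other classes, the stromal-like class included. T and NK-like cells had the highest S100a8 of these classes, at 1158 CPM, above the highest stromal-like library at 706 CPM. Ctsg stood apart in mast or basophil-like cells, at 599 ± 770 CPM (SD) in the 2 libraries with at least 10 of them. It was at 54.5 CPM in CON 2, with 11 such cells, and at 1144 CPM in CON 3, with 29. In the other 9 classes Ctsg was at most at 8.70 CPM on average. Cathepsin G is also known as a protease of mast cells.

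Cells of the progenitor-like class held both granule programmes. With each cell thinned to 500 UMIs, 50%, 55.2%, 37.0% and 45% of progenitor-like cells in CON 2, CON 3, CKO 2 and CKO 3 had a UMI of an azurophil gene and none of a specific granule gene. A further 39.7%, 39.6%, 63.0% and 47.5% had both. In cycling immature cells both were found in 17.9%, 35.1%, 15.5% and 26.5% of cells, and specific granule genes alone in 63.5% to 83.6%. In non-cycling immature cells specific granule genes alone were found in 85.3% to 99.3%, with CON 3 the lowest. In mature cells neither was found in 45.5% to 97.3% over 6 libraries, with CKO 3 the lowest and CKO 1 the highest. In cycling monocyte-like cells 10.0% to 77.4% had an azurophil UMI alone. Of 114 such cells 0 had both, which allows a share of up to 2.63%. Of the 1440 non-cycling monocyte-like cells, 5.21% had an azurophil UMI alone and 9.03% a specific granule UMI alone. At this depth a cell without a UMI cannot be told from a cell that lacks the transcript. For comparison, 0.442% of thinned stromal-like cells had an Elane UMI and 3.42% a Camp UMI, against 83.9% and 42.6% of progenitor-like cells. Median depths before thinning were 8944.5 UMIs in stromal-like and 12602 in progenitor-like cells.

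**Figure D3:**
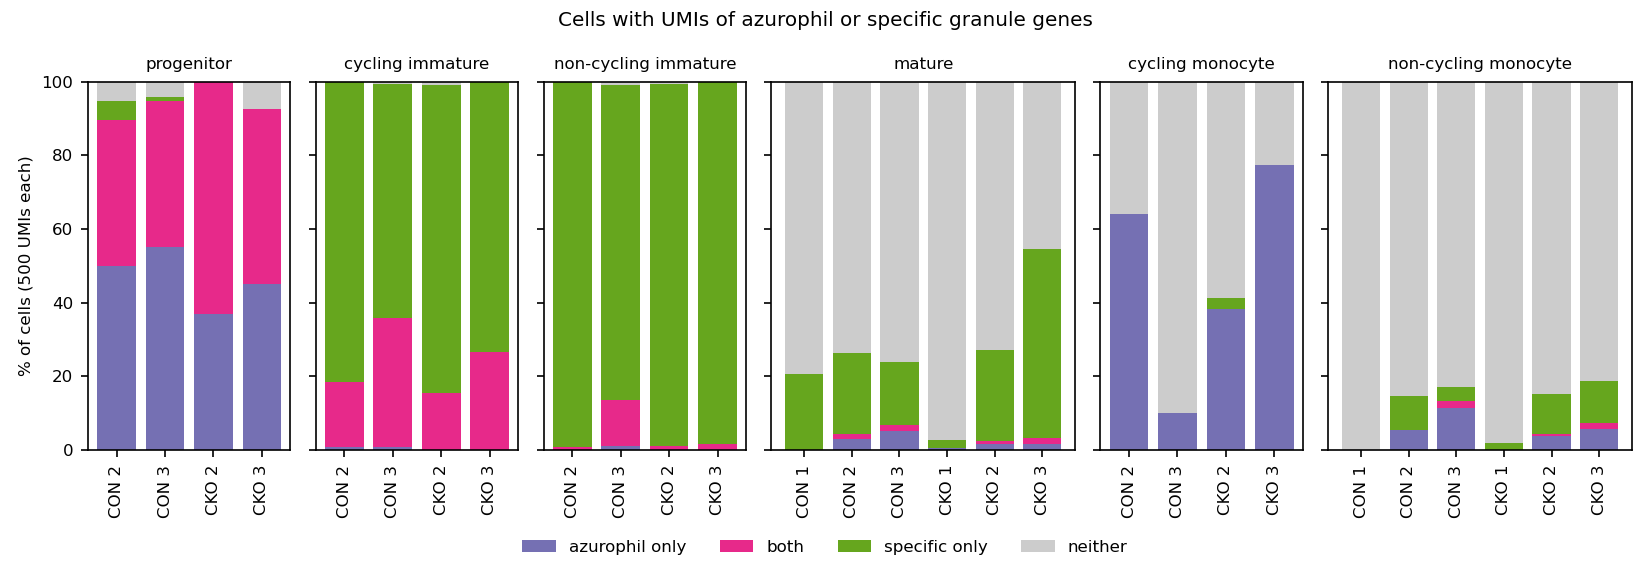
Share of cells (percent, stacked bars from 0 to 100) with a UMI of azurophil genes only, of both granule classes, of specific granule genes only or of neither, per stage and library, each cell thinned to 500 UMIs. Azurophil-only cells are frequent in progenitor-like and cycling monocyte-like cells, cells with both occur in progenitor-like and cycling immature cells, and specific-only cells fill the non-cycling immature stage.

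The levels of the 9 genes were also compared across all cell classes. Over 78 sums of UMIs per library and class, with log2(CPM + 1) values, Pearson's r was 0.840 to 0.932 among the 4 azurophil genes, 0.903 to 0.955 among Ltf, Camp and Ngp, and 0.995 between S100a8 and S100a9. Between azurophil and specific granule genes r ran from 0.264 for Ctsg and Ltf to 0.655 for Camp and Elane, and between azurophil genes and calprotectin from 0.356 to 0.559. Specific granule genes and calprotectin were closer, with r from 0.784 to 0.875, which reaches into the range found among the azurophil genes. These are descriptions without a test, since the sums share libraries and background RNA. Outside the fixed lists, the gene most like the azurophil mean was Ms4a3 (r = 0.898), which is also a marker used to name the progenitor-like class. The next ones were 1700020L24Rik at 0.788, Dmkn at 0.694, Hmgn2 at 0.681 and Plppr3 at 0.681. For the specific granule mean they were 4930438A08Rik at 0.889, Abca13 at 0.869, Ppp1r42 at 0.867, B230208H11Rik at 0.849 and Mapk13 at 0.824. For calprotectin they were Mapk13 at 0.925, Trem3 at 0.905, B230208H11Rik at 0.900, Slco4c1 at 0.882 and Ly6g at 0.878. Abca13, Trem3 and Ly6g are markers used to name immature neutrophil-like cells.

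Several members lie close together in the genome. In GRCm38 with GENCODE M21, Elane lies on the plus strand at chr10:79886247-79888215 and Prtn3 at chr10:79874476-79883174, with 3.07 kb between them. Mpo lies at chr11:87793581-87804413 on the plus strand and Ctsg at chr14:56099881-56102574 on the minus strand. On chromosome 9 Camp lies at chr9:109847379-109849617 on the minus strand, Ngp at chr9:110419747-110423012 and Ltf at chr9:111019271-111042767 on the plus strand. S100a8 on the plus strand at chr3:90668978-90670035 and S100a9 on the minus strand at chr3:90692632-90695721 are separated by 22.6 kb. All are annotated as protein-coding.

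Because members of a granule type moved together over the stages, the sequence upstream of their starts is shown, from RefSeq on GRCm38.p6. The 150 bases before each RefSeq start were searched on both strands for a C/EBP-type motif (TTNNGNAA) and an ETS-type motif (AGGAAG, the class to which PU.1 belongs). Capitals mark matches on either strand, sequences read 5′ to 3′ on the gene's strand, and bases that lie in GENCODE exons are left out. The windows of Mpo and Camp lie wholly in such exons and are not shown. The RefSeq start of Prtn3 lies inside the gene as GENCODE annotates it, so the stretch shown for Prtn3 is upstream of the RefSeq start only.
Elane, chr10:79886162-79886246, plus strand: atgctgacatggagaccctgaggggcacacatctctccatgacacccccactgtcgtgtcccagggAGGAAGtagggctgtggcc
Prtn3, chr10:79879517-79879613, plus strand: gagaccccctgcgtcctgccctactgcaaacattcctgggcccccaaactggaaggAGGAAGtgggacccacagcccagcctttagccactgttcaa
Ctsg, chr14:56102575-56102724, minus strand: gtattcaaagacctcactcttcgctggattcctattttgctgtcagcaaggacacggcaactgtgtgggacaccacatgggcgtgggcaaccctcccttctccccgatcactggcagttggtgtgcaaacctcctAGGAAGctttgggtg
Ltf, chr9:111019142-111019270, plus strand: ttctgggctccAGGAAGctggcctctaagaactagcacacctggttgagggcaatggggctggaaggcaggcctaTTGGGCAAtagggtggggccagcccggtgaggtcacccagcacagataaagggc
Ngp, chr9:110419658-110419746, plus strand: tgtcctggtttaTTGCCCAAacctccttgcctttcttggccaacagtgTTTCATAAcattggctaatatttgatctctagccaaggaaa
S100a8, chr3:90668921-90668977, plus strand: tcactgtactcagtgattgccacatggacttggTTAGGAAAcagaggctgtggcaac
S100a9, chr3:90695722-90695871, minus strand: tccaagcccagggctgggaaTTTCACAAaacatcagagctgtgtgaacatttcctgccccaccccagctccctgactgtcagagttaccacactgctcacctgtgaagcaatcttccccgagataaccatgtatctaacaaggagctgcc
The ETS-type letters were found in 5 of 9 members, Elane, Prtn3, Ctsg, Ltf and Camp, against 19.7% of 32851 RefSeq promoter windows of the same length. The C/EBP-type letters were found in 4 of 9, Ltf, Ngp, S100a8 and S100a9, against 22.7% of the windows, with 3 matches in Ngp, of which 2 lie in the stretch shown. Ltf was the 1 member with both, and Mpo had neither in its window. A match is a description of letters, and no binding was measured.

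Other granule genes followed their own order. Of 13 azurophil genes that reached 10 CPM, 6 were highest in progenitor-like cells, the 4 members with Prss57 and Cd63, and 5 in non-cycling monocyte-like cells. The latter included the lysozymes Lyz1 and Lyz2. Lyz2 was at 16766 ± 3198 CPM in non-cycling monocyte-like cells (SD, n = 6 libraries) against 1328 ± 871 in progenitor-like cells (n = 4 libraries). Ctsc, which activates the granule serine proteases, was at 674 ± 202 CPM in cycling monocyte-like cells and at 36.9 ± 21.4 in progenitor-like cells (SD, n = 4 libraries each). Its level was thus low in the cells with the most Elane, Prtn3 and Ctsg transcript. Srgn, the proteoglycan core on which granule proteases are packed, was at 3475 ± 373 CPM in progenitor-like cells and highest in mature cells at 5589 ± 2387 (n = 6 libraries). Of 24 specific and gelatinase granule genes, 6 were highest in cycling immature, 13 in non-cycling immature and 5 in mature cells. Lcn2, which binds bacterial siderophores, was at 15426 ± 2691 CPM in non-cycling immature cells (n = 4 libraries) and 3708 ± 1380 in mature cells (n = 6 libraries). Wfdc21 was at 5715 ± 375 and 2520 ± 614 CPM in these stages. Retnlg went the other way, with 10656 ± 1710 and 19165 ± 7743 CPM.

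Of the S100, calprotectin receptor and protease inhibitor lists, the inhibitor list had the most genes highest in mature cells. Of the other S100 genes, S100a6 and S100a11 were highest there. S100a6 was at 171 ± 55.7 CPM in progenitor-like, 7134 ± 443 in non-cycling immature and 9677 ± 3440 in mature cells, and S100a11 was at 631 ± 152, 2246 ± 568 and 4178 ± 385 CPM. In contrast, S100a10 was highest in cycling monocyte-like cells, at 1709 ± 281 CPM, and S100a4 in non-cycling monocyte-like cells, at 1504 ± 584 CPM (n = 6 libraries). Of the reported receptors of calprotectin, Cd33 and Tlr4 were highest in mature cells, at 513 ± 245 and 48.4 ± 39.0 CPM. Bsg was highest in progenitor-like cells at 262 ± 77.2 CPM and Cd36 in non-cycling monocyte-like cells at 50.1 ± 41.9 CPM (n = 6 libraries). Of 13 genes of the inhibitor list 8 were highest in mature cells, BC100530, Serping1, Slpi, Stfa1, Stfa2, Stfa2l1, Timp1 and Timp2. Slpi, an inhibitor of elastase and cathepsin G, was at 2990 ± 649 CPM there against 238 ± 40.1 in progenitor-like cells. The cystatin Stfa2l1 was at 1305 ± 1108 CPM in mature cells, whereas Cst3 was highest in non-cycling monocyte-like cells at 2459 ± 700 CPM (n = 6 libraries). Serpinb1a, which inhibits the same proteases inside the neutrophil, was highest in cycling immature cells. Of 10 transcription factors, Gfi1 and Myb were highest in progenitor-like cells, Cebpe in cycling immature cells, Cebpb, Cebpd and Spi1 in mature cells and Irf8 in cycling monocyte-like cells. Cebpb was at 2680 ± 1469 CPM in mature cells and 249.1 ± 75.7 in progenitor-like cells. Spi1, which encodes PU.1, varied less, from 274 ± 28.1 in progenitor-like to 627 ± 108 CPM in mature cells, and Cebpd went from 197 ± 32.8 to 527 ± 138 CPM. In this paragraph errors are SDs over 6 libraries for mature cells and, unless stated, over 4 for the other stages.

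The genotype labels were compared within each class on UMI sums per library with the quasi-likelihood test of edgeR, and p-values were adjusted by Benjamini-Hochberg over all genes tested. None of the 9 members passed the threshold of 0.05 in progenitor-like, immature, mature or monocyte-like cells, where Ctsg was too low to be tested in mature cells. Genes called were 2 of 7074 tested in progenitor-like cells (0.0283%), Cd74 (log2 fold change 3.68) and Rps3a3 (-9.88), and 0 of 7689 in immature, 0 of 6489 in mature and 0 of 8452 in monocyte-like cells (0% each). At an unadjusted p under 0.05 there were 871, 465, 240 and 132 genes in the 4 classes, and DESeq2 called 37, 18, 2 and 0. In data simulated from the same libraries, the test recovered 10.8% of changes of 1 log2 unit and 77.2% of changes of 2 log2 units in progenitor-like cells, 3.08% and 60.7% in immature, 4.69% and 63.2% in mature and 3.77% and 61.9% in monocyte-like cells. Changes of the size of most differences below could thus be missed.

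Progenitor-like cells could be compared in 2 libraries against 2. Of the 4 azurophil genes, the log2 ratio of CKO to CON was 1.04 ± 0.25 for Elane (SE, adjusted p = 0.275 by edgeR) and 0.50 ± 0.27 for Prtn3 (adjusted p = 0.468). Mpo and Ctsg lay on the other side, with -0.70 ± 0.21 (adjusted p = 0.359) and -0.63 ± 0.23 (adjusted p = 0.387, edgeR). From the levels above, the groups did not overlap for Elane, Mpo and Ctsg and overlapped for Prtn3. Among the specific granule genes, Camp had 1.49 ± 0.45 (adjusted p = 0.354, edgeR) and Ngp 2.01 ± 0.54 (adjusted p = 0.303), both without overlap of the groups. Ltf had 0.78 ± 1.12, S100a8 0.71 ± 0.37 and S100a9 0.58 ± 0.28, each with overlap. The groups failed to overlap in 5 of 9 members, against 48.9% of all genes with a mean of at least 10 CPM, so the members' share was near the background. Elane passed with DESeq2, at an adjusted p of 0.00384. Without CON 2, Camp (log2 fold change 2.09, adjusted p = 0.00559 by edgeR) and Ngp (3.07, adjusted p = 6.95e-05) passed. Without CON 3, Elane passed (1.31, adjusted p = 0.0299 by edgeR), and without CKO 3, Camp, Ngp and S100a8 did (1.99, 2.48 and 1.205, adjusted p = 0.000887, 0.000693 and 0.0186). Without CKO 2 the differences were smaller, 0.78 for Camp (adjusted p = 0.267 by edgeR), 1.38 for Ngp (adjusted p = 0.0954) and 0.014 for S100a8 (adjusted p = 0.991), so Camp and S100a8 rested most on that library. With the replicate number as a block, Ngp passed (2.14, adjusted p = 0.0290 by edgeR). In the fits without 1 library, the lone library of a group is assumed to vary like the other group.

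In immature cells, again 2 libraries against 2, the members with the log2 fold changes farthest from 0 were azurophil genes at low levels. Mpo was at 49.3 CPM in CON 2 and 268 in CON 3 against 10.8 in CKO 2 and 21.8 in CKO 3, without overlap, and the fitted log2 ratio was -3.05 ± 0.79 (SE, adjusted p = 0.697 by edgeR). Ctsg was at 16.5 and 70.8 CPM against 7.88 and 15.4, with -1.66 ± 0.70 (adjusted p = 0.792, edgeR). The CKO levels of Mpo rest on 22 and 27 UMIs and lie near the highest stromal-like level of 17.6 CPM. CKO 1, left out with 9 immature cells, had Mpo at 265 and Ctsg at 703 CPM. CON 1, also left out with 9 such cells, had no UMI of either gene. Cycling cells made up 32.7% and 60.9% of the immature cells in CON 2 and CON 3 and 39.5% and 15.4% in CKO 2 and CKO 3. Within the cycling cells alone Mpo was at 88.1 and 359 CPM against 14.1 and 69.8, still without overlap. Ctsg was at 28.0 and 98.3 CPM there against 11.6 and 50.7, with overlap. Ngp was at 40949 and 28687 CPM against 42898 and 41723, with 0.47 ± 0.23, and S100a8 at 149883 and 153708 CPM against 187093 and 160559, with 0.39 ± 0.13 (adjusted p = 0.792 for both, edgeR). The groups did not overlap for either gene over the class. Within cycling cells S100a8 was at 137468 and 146469 CPM against 172392 and 136607, with overlap. Within non-cycling cells it was at 163098 and 171574 CPM against 208690 and 168761, also with overlap. Ngp was without overlap in cycling cells, at 43666 and 28931 CPM against 51490 and 49233. In non-cycling cells it overlapped, at 38056 and 28086 CPM against 30275 and 39151. Camp, Ltf and S100a9 had log2 fold changes of 0.12, 0.01 and 0.20 with overlapping groups. Over the class the groups failed to overlap in 4 of 9 members, against 42.8% of genes with a mean of at least 10 CPM. Mpo passed with DESeq2 (adjusted p = 0.00329). Without CKO 3, Mpo was at -3.58 (adjusted p = 0.291 by edgeR), Ngp at 0.48 and S100a8 at 0.50 on the log2 scale. Without CON 3, Mpo was at -1.53, Ctsg at -0.45 and Ngp at 0.14, and without CON 2 at -3.79, -2.38 and 0.82, so these differences depended on which CON library was kept.

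Mature cells were present in all 6 libraries. Ltf was at 23.8, 133 and 141 CPM in CON 1, CON 2 and CON 3 and at 4.13, 672 and 936 CPM in CKO 1, CKO 2 and CKO 3. Camp was at 280, 547 and 785 against 5.16, 2632 and 4003 CPM, and Ngp at 1267, 1119 and 842 against 57.8, 3528 and 8069 CPM. CKO 2 and CKO 3 lay above every CON library and CKO 1, with 187 mature cells, below every one. S100a8 was at 78396, 67714 and 65301 CPM in CON against 50623, 136063 and 130308 CPM in CKO, in the same pattern. S100a9 was at 90176, 69372 and 74585 against 73199, 129924 and 129577 CPM, where CKO 1 lay within the CON range. The log2 fold changes were 2.69 ± 1.19 for Ltf, 2.38 ± 1.29 for Camp, 2.21 ± 1.10 for Ngp, 0.88 ± 0.55 for S100a8 and 0.78 ± 0.49 for S100a9 (SE, n = 3 against 3 libraries, adjusted p = 0.983 by edgeR for each). The groups overlapped in 7 of 7 members with a mean of at least 10 CPM, against a background of 10.3% of genes without overlap. When both replicate 1 libraries were left out, the values were 2.88 for Ltf and 2.65 for Camp (adjusted p = 0.200 by edgeR for both), 2.88 for Ngp and 1.31 for S100a8 (adjusted p = 0.229 for both) and 1.17 for S100a9. No member passed in that fit either. Without CKO 3 alone they were 1.99 for Ltf, 1.61 for Camp, 1.07 for Ngp, 0.65 for S100a8 and 0.59 for S100a9, so Ngp and Camp rested most on that library.

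**Figure D4:**
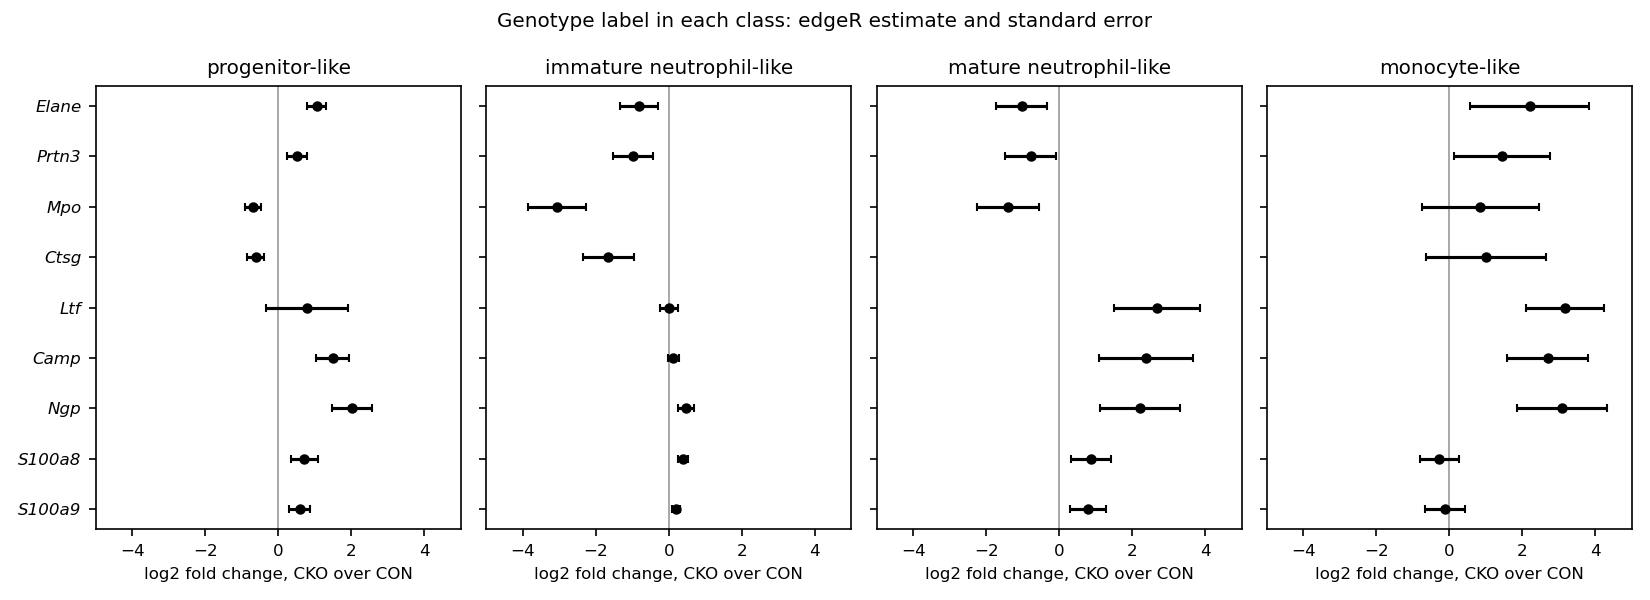
Log2 fold change of each member, CKO over CON, in progenitor-like, immature, mature and monocyte-like cells; points are edgeR estimates and bars their standard errors. Estimates lie on both sides of 0, from -3.05 for Mpo in immature cells to 3.17 for Ltf in monocyte-like cells, and Ctsg is missing in mature cells, where it was not tested.

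The same libraries stood out inside the mature sub-clusters. The sub-cluster led by Gm5483 and Il1f9 held more Camp over all its cells, 2742 CPM, than those led by Cxcl2 or Ifit1, at 397 and 389 CPM. It made up 24.1%, 28.7% and 29.8% of mature cells in CON 1, CON 2 and CON 3 and 32.6%, 42.8% and 51.3% in CKO 1, CKO 2 and CKO 3, without overlap. The CON 1 share rests on 7 of 29 cells. The Cxcl2-led sub-cluster made up 62.1%, 63.8% and 59.5% against 49.7%, 43.3% and 38.9%, without overlap in the other direction. With 3 libraries against 3, 10% of all orders separate the groups. Sub-cluster sizes were not tested, since granule transcripts differ between these sub-clusters. Within the Gm5483-led cells Camp was at 1132 CPM in CON 2 and 1719 in CON 3 against 2.92, 4208 and 5846 in CKO 1, CKO 2 and CKO 3. Within the Cxcl2-led cells Camp was at 13.7, 186 and 246 CPM against 7.06, 944 and 1309. CKO 2 and CKO 3 thus lay above the CON libraries within each of these sub-clusters, and CKO 1 below them. In the Ifit1-led cells, which carry interferon-induced genes, Ngp was at 337 and 174 CPM in CON 2 and CON 3 against 107, 1004 and 5743 CPM in CKO 1, CKO 2 and CKO 3. The Ccl3-led sub-cluster had at least 10 cells only in CON 2 and CON 3.

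**Figure D5:**
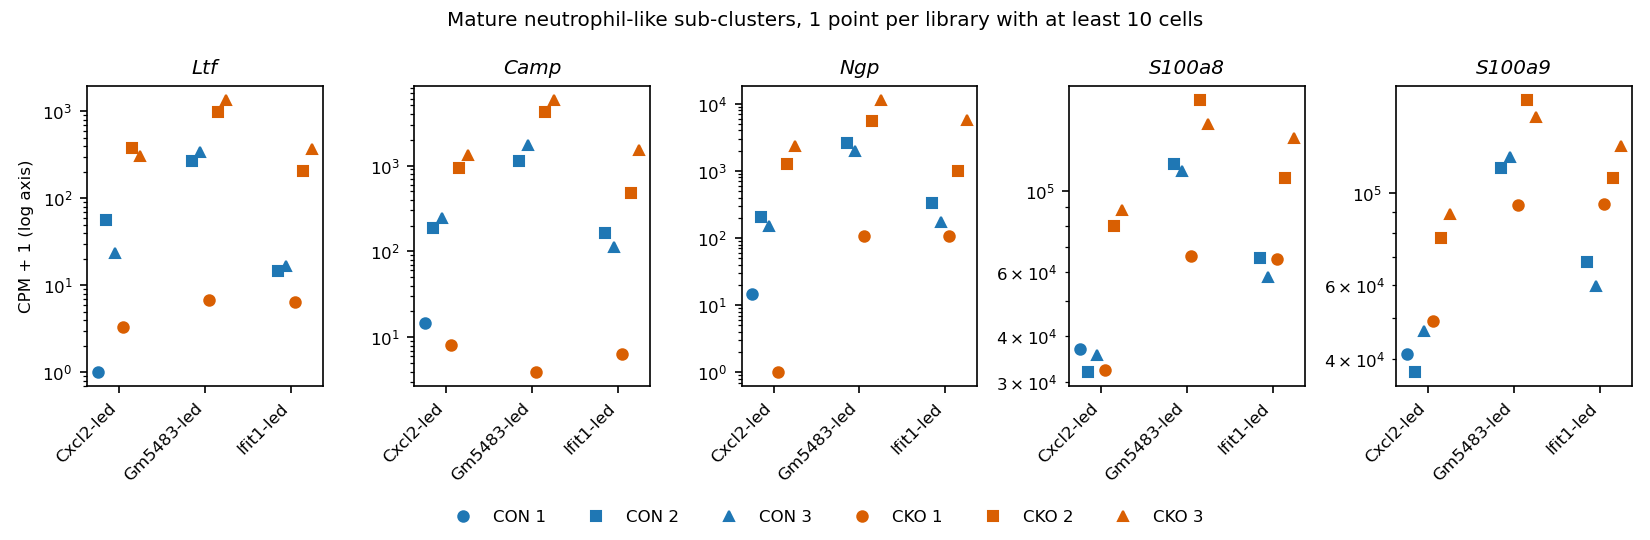
Level of Ltf, Camp, Ngp, S100a8 and S100a9 (CPM + 1, log axis) in the sub-clusters of mature neutrophil-like cells, 1 point per library with at least 10 cells. CKO 2 and CKO 3 lie above the CON libraries in the Cxcl2-, Gm5483- and Ifit1-led cells, and CKO 1 has the lowest Camp.

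In monocyte-like cells the members with the largest fitted differences were at low levels. Ltf was at 0 (up to 13.9 allowed), 14.8 and 7.28 CPM in CON 1, CON 2 and CON 3 and at 2.83, 66.7 and 183 CPM in CKO 1, CKO 2 and CKO 3, with a log2 fold change of 3.17 ± 1.07. Camp (2.69 ± 1.11) and Ngp (3.09 ± 1.23) followed, with CKO 2 and CKO 3 high and CKO 1 within or below the CON range (SE, n = 3 against 3 libraries, adjusted p = 1 by edgeR for each). Without CKO 3 the 3 genes had 1.98, 1.97 and 1.92 in the order Ltf, Camp and Ngp. With cells assigned by marker counts the direction turned, to -0.86 for Ltf, -0.11 for Camp and -0.45 for Ngp. In the sub-cluster led by Ms4a4c and Ccr2 Camp was at 63.5 and 51.5 CPM in CON 2 and CON 3 and at 116 and 144 CPM in CKO 2 and CKO 3, near the stromal-like range of up to 122 CPM. In the sub-cluster led by Ace and Cx3cr1 it was at 67.5 and 21.9 CPM against 979 and 5019 CPM, the last from 16 cells of CKO 3 with S100a8 at 57909 CPM. In the Ms4a4c- and Ccr2-led cells Ngp was at 68.7 and 23.1 CPM in CON 2 and CON 3. It was at 3.17, 128 and 410 CPM in CKO 1, CKO 2 and CKO 3, and the highest stromal-like level was 80.8 CPM. S100a8 in those cells was at 4272 and 4940 CPM against 767, 1167 and 3667. High specific granule transcripts thus came with high S100a8 in the Ace- and Cx3cr1-led cells of CKO 3, but high Ngp in the Ms4a4c-led cells did not. Over the class as a whole S100a8 had a log2 fold change of -0.28 ± 0.54 and S100a9 of -0.11 ± 0.55. Elane had 2.19 ± 1.63, Prtn3 1.44 ± 1.32, Mpo 0.85 ± 1.61 and Ctsg 1.00 ± 1.65, all 4 of which took the opposite sign without CKO 3, -1.12, -1.48, -2.70 and -2.55. The groups overlapped in 9 of 9 members, against 5.13% of genes without overlap.

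Unnamed cells also carried granule transcripts. A sub-cluster of 46 cells, 43 of them from CKO 2, had Ltf, Camp and Ngp beside the monocyte genes Ace and Cx3cr1 among its leading genes. A sub-cluster of 171 cells had Camp and Ngp beside the bone and cartilage genes Ibsp and Col10a1. Whether these are doublets was not tested beyond the removal of high doublet scores, and neither enters a class.

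Lists of related genes gave no calls by genotype label. In each of the 4 classes, 0 genes of the azurophil, specific and gelatinase granule, S100, calprotectin receptor, protease inhibitor and transcription factor lists passed the test (edgeR, Benjamini-Hochberg over all genes); over all genes the counts at an unadjusted p under 0.05 and by DESeq2 are those given above. In mature cells the median log2 fold change was 0.59 over 22 specific and gelatinase granule genes tested, of which 21 lay above 0, and 0.98 over 12 inhibitor genes, of which 12 did, against 0.04 over all genes. In progenitor-like cells it was 0.65 over 19 specific and gelatinase granule genes and 0.30 over 12 azurophil genes against 0.00 over all genes. In immature cells it was 0.11 over 24 and 0.02 over 12 genes of these lists, and in monocyte-like cells 0.12 over 20 and 0.22 over 12. The inhibitor list had medians of 0.61 over 8 genes in progenitor-like, 0.88 over 12 in immature and 0.27 over 7 in monocyte-like cells. Of these inhibitor genes, 6, 10 and 5 lay above 0 in the same order of classes. The azurophil list had a median of 0.20 over 10 genes in mature cells. In progenitor-like, immature, mature and monocyte-like cells, S100 list medians were 0.68, 0.47, 0.60 and -0.20 over 6 genes each. Above 0 lay 5, 5, 6 and 1 of them. Calprotectin receptors had 1.02, 0.44, -0.04 and 0.28 over 1, 3, 3 and 4 genes, with 1, 2, 1 and 2 above 0. Transcription factors had 0.37, 0.03, 0.01 and -0.10 over 10, 9, 6 and 7 genes, with 7, 6, 4 and 2 above 0. The lists hold the members themselves. Genes of a list were measured in the same libraries, so their signs are not independent, and the medians and counts were not tested. For all genes only the median is given, not the share above 0. No list value is given per library or without CKO 3.

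No share of a class passed the exact permutation test between the groups. Progenitor-like cells made up 0.598% ± 0.557 of CON and 0.357% ± 0.256 of CKO cells (SD, n = 3 libraries, two-sided exact permutation p = 0.5). Immature cells made up 2.70% ± 2.44 and 2.08% ± 1.55 (exact permutation p = 1), and mature cells 8.22% ± 8.63 and 5.84% ± 1.00 (exact permutation p = 0.8). Monocyte-like cells made up 2.72% ± 2.42 and 3.46% ± 3.29 (exact permutation p = 0.7). Immature cells as a share of immature and mature cells were 25.6% ± 4.43 in CON and 24.7% ± 17.9 in CKO (exact permutation p = 0.9), with CKO 1 at 4.59% and CKO 3 at 38.9%. The smallest p that 3 libraries against 3 allow is 0.1. Without CKO 3 the last difference was -8.03 percentage points (exact permutation p = 0.4). Over whole libraries, Camp ranged from 63.8 to 2521 CPM in CON and from 18.5 to 1496 CPM in CKO, and such a level cannot tell fewer cells from less transcript per cell.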

How the data were processed

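Callus cells of 6 libraries, 3 labelled CON and 3 labelled CKO, were sequenced as droplet 3′ libraries. The deposited values are raw counts of UMIs per gene and filtered barcode, which the authors made with Cell Ranger from reads aligned to GRCm38. Per the labels, replicate 1 of CON and CKO was run with version 6.1.1 and the rest with 6.1.2. Seurat is also listed among their tools. Because replicate 3 lists other genes, the 52081 identifiers common to the libraries were used.

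A cell needed 500 UMIs and 200 genes, with no more than 20% of its UMIs mitochondrial. Doublets were removed by Scrublet score (scanpy 1.11.5 under Python 3.11.15) at a rate of 0.8% of a library per 1000 cells, 3046 cells in all. Cells were clustered on 2000 variable genes after RPCA integration (Seurat 5.3.0, R 4.3.3), and 6882 myeloid cells were clustered again at a resolution of 0.8. The members, their lists, and mitochondrial, ribosomal and haemoglobin genes were left out of clustering. To be named, a cluster needed 3 markers of a class in at least 25% of its cells and at least 2-fold above the median cluster. This naming rule was set with the data in view but blind to genotype.

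UMIs were summed over the cells of a class in each library with at least 10 of them and tested with edgeR 4.0.16 (TMM scaling after filterByExpr, quasi-likelihood test, two-sided), which had been tested on simulated data. DESeq2 1.42.0 was an alternative. Shares were compared by exact permutation in scipy 1.17.1. Members, lists and tests were chosen with earlier results of these data known. Genes named beside the members are the 3 of each list with the highest level where the list is highest, and the 5 most like each granule mean among genes reaching 50 CPM. List genes named by the stage of their highest level, leading genes of sub-clusters, the called genes and the unnamed sub-clusters were picked outside this rule with their values known. Alternatives added later were scaling without the 9 genes, a crossed pairing and leaving out both replicate 1 libraries. Promoter windows are RefSeq's on GRCm38.p6. Limits on counts of 0 cover counting error only.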

Additional observations from a re-analysis of the deposited data

How the results depend on the processing

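Where each of the 9 genes was highest held under the alternatives that kept cycling immature cells apart. With marker counts and without integration the highest class was the same among the cells compared. Without integration 519 cycling cells with Camp, Ngp and Ltf leading were unnamed and left out, so that setting could not test these genes there. Those settings had no separate cycling immature cells, so peaks within immature cells could not be compared there. Of 476 member log2 fold changes by genotype label under alternatives, 419 kept direction and side of the threshold, 23 passed the threshold where the reported value had not, and 34 took the opposite sign. Where the cause is not given by construction (fewer libraries, other genes tested) it was not tested.

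Calls among all genes were 2 in progenitor-like and 0 in the other cells. With DESeq2 they were 37 (progenitor-like), 18 (immature) and 2 (mature), and with no filter on low counts 167, 129, 34 and 35 (monocyte-like). Without 1 library they ran from 22 to 105 in progenitor-like and from 0 to 26 in immature cells, which rests on CKO 3 and CKO 2. Without integration they were 1 in progenitor-like and 215 in immature cells, where 1 CKO library was left, at resolution 1.2 there was 1 in progenitor-like cells, and without both replicate 1 libraries 1 in monocyte-like cells. Members called were 1 (progenitor-like) and 1 (immature) with DESeq2, 5, 2, 3 and 4 in the 4 classes with no filter, and 0 to 3 without 1 library in progenitor-like cells. No filter moved the median log2 fold change of all genes to -0.18 in progenitor-like and 0.17 in mature cells, and DESeq2 to -0.12 in progenitor-like cells.

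With a replicate block 6 genes and 1 member, Ngp (log2 fold change 2.14, adjusted p = 0.0290 by edgeR), passed in progenitor-like cells, and no other member's call was altered. The labels name no animal or batch shared by a number, although replicates 1 differ in the Cell Ranger version and replicates 3 in the gene list. Same-numbered libraries had deviations correlated at -0.07 to 0.43 in mature and monocyte-like cells, against -0.37 to 0.42 for differently numbered ones. In progenitor-like and immature cells the values of same-numbered libraries were -0.01 and -0.30. They are fixed by 2 libraries against 2 to be mirror images of the others, so whether the numbers pair them there was not settled. A crossed pairing called 0 genes in immature cells.

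Differences in log2 between groups that took the opposite sign were, in immature cells, Camp at -0.95, -0.15 and -0.035 (no integration, resolution 1.2, marker counts), Ngp at -0.85 and Prtn3 at 0.49 (no integration). Ltf, at 0.01, was -0.018 with DESeq2, -0.067 with no filter, -0.024 with stricter cells, -1.16 with no integration, -0.33 at resolution 1.2 and -0.13 with marker counts. With classes from marker counts, monocyte-like Camp was -0.11, Ltf -0.86 and Ngp -0.45, and mature Elane 2.51, Prtn3 1.71 and Mpo 0.079. At resolution 1.2 monocyte-like S100a8 was 0.15 and S100a9 0.31, and S100a9 was 0.42 without both replicate 1 libraries. Without 1 library the ranges were -1.41 to 0.15 for Elane, -1.61 to 0.10 for Prtn3 and -0.32 to 0.36 for Ltf in immature cells, and -2.37 to 3.57 for Ltf in progenitor-like cells. In monocyte-like cells they were -1.12 to 4.19 for Elane, -1.48 to 2.43 for Prtn3, -2.70 to 4.88 for Mpo, -2.55 to 4.80 for Ctsg, -1.04 to 0.082 for S100a8 and -0.99 to 0.25 for S100a9.

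Differences in share, CKO minus CON in percentage points, ran without 1 library from -0.540 to 0.0112 (progenitor-like), -1.86 to 0.576 (immature), -6.14 to 2.33 (mature), -1.15 to 2.01 (monocyte-like) and -8.03 to 9.12 (immature among immature and mature). The last was 12.3 with no integration, 2.96 at resolution 1.2 and 8.18 without both replicate 1 libraries, and that of immature cells 0.589 with no integration. Progenitor-like and immature cells rest on 2 libraries against 2, and stage levels on 10 to 1482 cells per library.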
